A study of Homo sapiens with 4 samples.

Results

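Replication-dependent histone genes were taken as the protein-coding genes of the clustered histone loci, those whose older symbols begin HIST1H, HIST2H, HIST3H or HIST4H, with their newer names. Of 60880 genes in the count table, 65 met this rule, namely 6 H1, 16 H2A, 16 H2B, 13 H3 and 14 H4 genes. The RNA was from LNCaP95, a human prostate cancer line derived from LNCaP that grows without added androgen, and from LN95(KO), LNCaP95 cells in which UGT2B17 was disrupted with CRISPR vectors. UGT2B17 is an enzyme that attaches glucuronic acid to androgens. Both lines grew in RPMI-1640 with charcoal-stripped serum and were untreated, and each gave 2 libraries, numbered 1 and 2 for LNCaP95 and 3 and 4 for LN95(KO). The labels do not say that the libraries of a line came from separate cultures, and how many clones LN95(KO) holds is not given in the sources used here. The p-values therefore measure the spread between these libraries only, and the line cannot be told apart from the knockout.

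Replication-dependent histone genes supply the core histones H2A, H2B, H3 and H4 and the linker H1 that package newly copied DNA in S phase. Their mRNAs are unusual in that most end just after a conserved RNA stem-loop, which the stem-loop binding protein SLBP holds, and carry no poly(A) tail. Replication-independent variants such as H2AZ1 and the H3.3 genes have introns and ordinary poly(A) tails and are used throughout the cell cycle, and H2AX mRNA can end either way. The libraries here were made from RNA selected with oligo(dT), so the values below count histone RNA that was captured by way of a poly(A) stretch or carried along, not the whole histone mRNA pool.

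The libraries held 17330338 to 18813193 reads assigned to genes. UGT2B17 had 2788 and 2748 reads in LNCaP95, against 21 and 20 in LN95(KO) (log2 fold change -7.04, SE 0.10, adjusted p = 1.18e-18). This matched the labels of all 4 libraries. Reads that did not align made up 3.85% and 3.96% of the entries in LNCaP95, against 8.05% and 7.71% in LN95(KO). All 10 prostate luminal markers were tested, and their summed level in CPM, reads scaled to 1000000 gene reads of a library with TMM factors, was 3038 and 3045 in LNCaP95, against 3917 and 3739 in LN95(KO), with 5 called higher and 1 lower. Summed levels of basal epithelial and endothelial markers were at most 3.17 CPM in any library, and the endothelial marker CDH5, the T cell marker CD3E and the fibroblast marker DCN were at 0 in all 4. Of these markers the endothelial VWF (8 and 8 reads in LNCaP95, against 49 and 58 in LN95(KO)) and the basal KRT14 (1 and 2 against 17 and 20) were called higher, and the fibroblast LUM (24 and 19 against 0 and 0) was called lower. Among 5 fibroblast markers, whose sums ranged from 30.1 to 35.6 CPM, COL1A1 gave 520 to 606 reads in each library. The part of these differences in the histone results was not tested. A gene was called when the edgeR quasi-likelihood test gave an adjusted p under 0.05 over all 15626 genes tested and the fold change exceeded 2.

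The stem-loop was looked for in the genome itself, in the 100 bases after each stop codon. Its most common form was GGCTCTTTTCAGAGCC, present unchanged in 37 of the 65 genes. This form was taken from the 65 genes themselves. A match to it with at most 2 mismatches was found in 60 of 65 genes, against 6 of 19634 other protein-coding genes (0.0306%). Those others were protein-coding genes outside the 65, with histone genes such as H2AX among them. Most H4 genes carried a stem with 2 mismatches to the common form. The stem-loops of the 7 called genes and of H4C8, as an example of the H4 form, are printed on their own strand with the 16 bases of the stem-loop in capitals, and the positions (GRCh37) are those of the capitals.
H2BC11, chr6:27100100-27100115, minus strand: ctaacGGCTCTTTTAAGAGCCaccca
H2AC11, chr6:27101294-27101309, plus strand: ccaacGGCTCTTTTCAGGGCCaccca
H2BC4, chr6:26123700-26123715, minus strand: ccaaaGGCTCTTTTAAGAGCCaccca
H2AC20, chr1:149858941-149858956, plus strand: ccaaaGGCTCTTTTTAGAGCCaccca
H2AC8, chr6:26217645-26217660, plus strand: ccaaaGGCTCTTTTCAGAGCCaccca
H2AC6, chr6:26124897-26124912, plus strand: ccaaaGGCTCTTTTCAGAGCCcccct
H2BC26, chr1:228646239-228646254, plus strand: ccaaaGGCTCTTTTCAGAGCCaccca
H4C8, chr6:26285359-26285374, minus strand: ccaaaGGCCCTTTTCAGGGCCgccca

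H2AC8, H2AC6 and H2BC26 had the exact common form, H2BC11, H2AC11, H2BC4 and H2AC20 had 1 mismatch, and H4C8 had 2. The genes differed more in where their annotated transcripts end. In the GENCODE annotation used here, 17 genes had at least 1 transcript that ran more than 50 bases past the stem-loop. In 43 genes every transcript ended at it, and in the other 5, all H4 genes, no stem-loop was found within 2 mismatches. Each of those 5 matched at 3 mismatches, so this group was set by the cutoff and by the form searched for. The longest transcript ended 37155 bases beyond the stem-loop in H2BC4, 14432 in H2AC6, 6424 in H2BC11 and 4551 in H2BC26, and 5 bases beyond it in H2AC11, H2AC20 and H2AC8.

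Histone reads were few and came mainly from a small number of genes. The 65 genes together took 5521 and 5396 reads in LNCaP95, against 4397 and 4557 in LN95(KO), which is 293 and 288 against 254 and 253 per 1000000 gene reads. Of the 65 genes, 18 had no read in any library, 25 more had reads but did not pass the filter on low counts, and 22 were tested. A count of 0 in a library allows a level of up to 3 reads, or 0.162 to 0.169 CPM, for counting error alone. The 8 genes with the most reads, H2BC21, H2AC6, H2AC25, H3C10, H2BC12, H4C9, H4C8 and H1-2, held 83.6% of the histone reads. The 17 genes with a transcript past the stem-loop held 73.7%, and 13 of them were tested, against 8 of the 43 genes whose transcripts all end there.

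**Figure D1:**
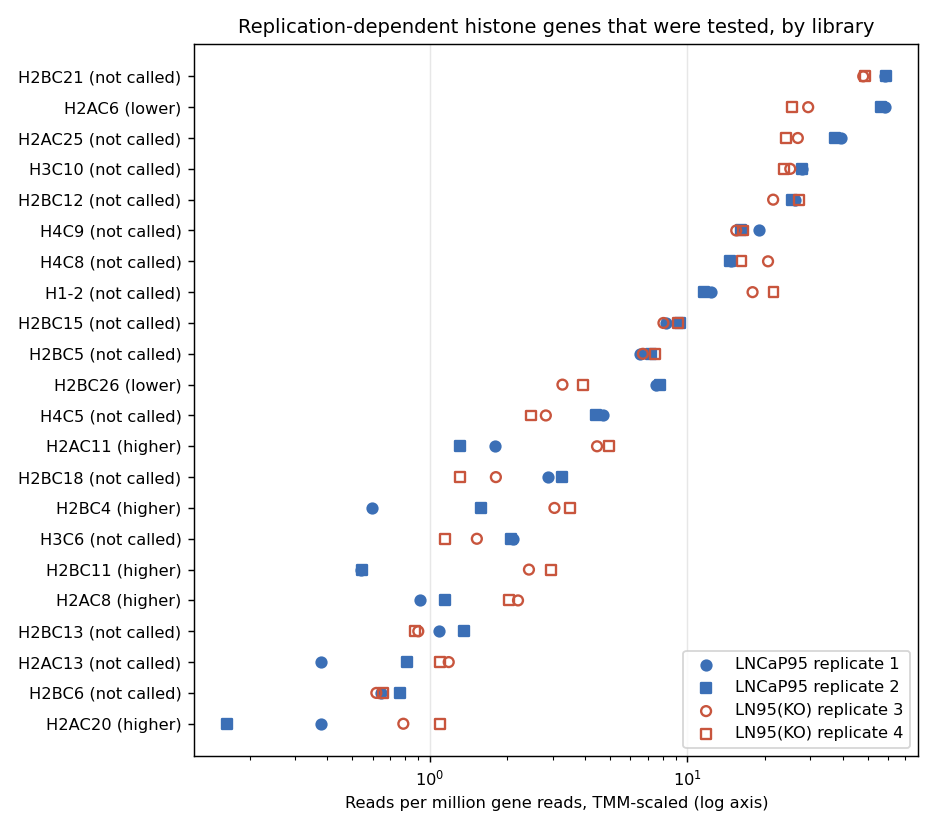
Level of each of the 22 tested histone genes in each library, in TMM-scaled CPM on a log axis, ordered by mean level, with LNCaP95 as filled and LN95(KO) as open symbols. The genes span a wide range of levels, from H2AC20 at 0.271 to H2BC21 at 58.5 CPM in LNCaP95, and most of the called genes sit in the lower part of the range.

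Of the 22 tested genes, 5 were called higher in LN95(KO), H2BC11, H2AC11, H2BC4, H2AC20 and H2AC8, and 2 were called lower, H2AC6 and H2BC26. These 7 are 31.8% of the tested members, where 18.0% of all genes tested were called, 8.86% higher and 9.13% lower. An adjusted p under 0.05 at any fold was reached by 14 members (63.6%), against 59.8% of all genes, and 7 of the 14 lay in each direction. The libraries of the lines did not overlap in 17 members (77.3%), against 79.8% of all genes. The median log2 fold change of the tested members was -0.11 and that of all genes tested was -0.01, and the median size of the change without its sign was 0.68 against 0.37. The members thus had a median close to that of all genes, with single members on both sides of it. Some tested members had few reads, and the part of this in the larger size of change was not tested. The tested members are those with enough reads, and no count here speaks for the 43 others. H2AC20, H2BC11 and H2AC13 reached the level the filter asks for in both LN95(KO) libraries but not in both LNCaP95 libraries. They could be tested only through their LN95(KO) reads, and they are counted in the shares and the median size above. Without them 19 members remained, of which 3 were called higher and 2 lower, with a median of -0.14.

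The genes called higher were H2A and H2B genes of low level. H2BC11, an H2B gene of the large cluster on chromosome 6 (chr6:27093676-27100574), had 10 and 10 reads in LNCaP95, against 43 and 54 in LN95(KO) (log2 fold change 2.30, SE 0.31, adjusted p = 6.08e-06). H2AC11, its H2A neighbour (chr6:27100822-27101314), had 33 and 24 reads against 79 and 91 (log2 fold change 1.60, SE 0.22, adjusted p = 8.08e-06). In both genes each LN95(KO) library was above each LNCaP95 library. H2BC11 passed the filter only through its LN95(KO) reads, so its direction was partly set by the filter. H2BC4 (chr6:26086545-26124154) had 11 and 29 reads against 54 and 64 (log2 fold change 1.59, SE 0.31, adjusted p = 0.0003). Its LNCaP95 libraries stood well apart, and the log2 fold change was 1.05 without replicate 1 and 2.45 without replicate 2. In the annotation, 30.9% of its exon bases lie in other genes, and 14.9% lie in a protein-coding gene on the opposite strand. The counting used no strand, so a read there was counted for neither gene where the annotation used for counting held the same overlap. That annotation was older than the one used here.

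H2AC20, an H2A gene of the chromosome 1 cluster (chr1:149858468-149858961), had the fewest reads of the called genes, 7 and 3 in LNCaP95, against 14 and 20 in LN95(KO). Its log2 fold change was 1.77 (SE 0.49, adjusted p = 0.0051), and 23.4% of its 50-base windows occur unchanged in another gene. DESeq2 gave it an adjusted p of 0.127, and without LNCaP95 replicate 2 or LN95(KO) replicate 4 edgeR gave adjusted p of 0.0866 and 0.109. H2AC8 (chr6:26217149-26217665) had 17 and 21 reads against 39 and 37 (log2 fold change 1.03, SE 0.28, adjusted p = 0.0046), and DESeq2 gave an adjusted p of 0.140. Its log2 fold change was 0.88 without LNCaP95 replicate 1 and 0.97 without LN95(KO) replicate 3. These 2 genes were higher in both LN95(KO) libraries, but their calls depended on the tool. H2AC20 passed the filter only through its LN95(KO) reads, so its direction was partly set by the filter.

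The genes called lower were H2AC6 and H2BC26. H2AC6 (chr6:26124373-26139344), with H2BC21 the member with the highest level in LNCaP95 in CPM, had 1080 and 1030 reads there and 521 and 464 in LN95(KO) (log2 fold change -1.07, SE 0.08, adjusted p = 2.22e-09). H2BC26, an H2B gene of the small HIST3 cluster on chromosome 1 (chr1:228645804-228650805), had 139 and 144 reads against 58 and 72 (log2 fold change -1.09, SE 0.16, adjusted p = 1.81e-05). Neither overlapped between the lines, and both had over 100 reads in each LNCaP95 library. Their changes lay close to the 2-fold criterion, at -0.96 in each without LN95(KO) replicate 4 for H2AC6 and replicate 3 for H2BC26.

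Per kilobase of annotated exon, the 10 highest tested members were H2BC12, H4C9, H2AC6, H2BC21, H1-2, H3C10, H2AC25, H4C5, H2BC5 and H4C8. Of these only H2AC6 was called. H2BC12 was at 52.0 CPM per kilobase in LNCaP95 and 49.0 in LN95(KO), with 481 and 467 reads against 381 and 493 (log2 fold change -0.09, SE 0.10, adjusted p = 0.472). H4C9, an H4 gene whose stem-loop has 3 mismatches to the common form, had 350 and 296 reads against 274 and 299 (log2 fold change -0.14, SE 0.10, adjusted p = 0.259). In both genes the libraries of the lines overlapped. For H2BC12, 57.2% of the 50-base windows occur unchanged in another gene.

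H2BC21, the H2B gene with the most reads, had 1079 and 1076 reads in LNCaP95, against 852 and 889 in LN95(KO) (log2 fold change -0.28, SE 0.06, adjusted p = 0.0010). H2AC25, the H2A gene beside H2BC26, had 729 and 688 reads against 475 and 440 (log2 fold change -0.60, SE 0.08, adjusted p = 4.87e-06). H4C5 had 87 and 81 reads against 50 and 45 (log2 fold change -0.79, SE 0.19, adjusted p = 0.0019). These 3 genes fell by less than 2-fold and did not overlap between the lines, though DESeq2 gave H4C5 an adjusted p of 0.0762. H1-2, the linker histone gene with nearly all H1 reads, had 228 and 212 reads against 317 and 394 and rose by 0.72 (SE 0.11, adjusted p = 2.44e-05) on the log2 scale. H4C8 had 273 and 269 reads against 364 and 296 (log2 fold change 0.32, SE 0.11, adjusted p = 0.0226), and 13.3% of its exon bases overlap a noncoding gene on the opposite strand. Without LN95(KO) replicate 3 the H4C8 value was 0.14 (adjusted p = 0.289), without replicate 4 it was 0.48, and DESeq2 gave an adjusted p of 0.179. Without LNCaP95 replicate 1 or 2 its adjusted p was 0.0593 and 0.0644. H3C10, the H3 gene with the most reads, had 512 and 511 reads against 444 and 433 (log2 fold change -0.19, SE 0.08, adjusted p = 0.0523), so its groups did not overlap but its test missed the threshold. H2BC5 had 121 and 132 reads against 119 and 137 (log2 fold change 0.05, SE 0.15, adjusted p = 0.788), with overlap between the lines.

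The other 6 tested members were not called. H2BC18 had 53 and 60 reads in LNCaP95, against 32 and 24 in LN95(KO), with a log2 fold change of -0.98, just inside 2-fold, and at -1.07 without LNCaP95 replicate 1 and -1.22 without LN95(KO) replicate 3 it was called. H3C6 had 39 and 38 reads against 27 and 21 (log2 fold change -0.65). Both had an adjusted p under 0.05 in the edgeR fit, but under DESeq2 it was 0.0838 for H2BC18 and 0.379 for H3C6. For H3C6 edgeR gave 0.0691 with library totals, 0.0659 with no filter, and 0.147, 0.127 and 0.241 without LNCaP95 replicate 1, LNCaP95 replicate 2 and LN95(KO) replicate 4. H2AC13, at 7 and 15 reads against 21 and 20, had a log2 fold change of 0.92, or 1.57 and a call without LNCaP95 replicate 2, and 63.5% of its windows in another gene. H2BC13 had 20 and 25 reads against 16 and 16 (-0.46). H2BC6 had 12 and 14 against 11 and 12 (-0.14), with 28.2% of its exon bases inside a noncoding gene. H2BC15 had 153 and 171 against 143 and 168 (-0.03). These 4 did not pass the adjusted p, and in H2BC6 and H2BC15 the lines overlapped.

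Among the 25 untested members with reads, no gene had more than 39 reads over the 4 libraries or 16 in any 1. H4C3 was the highest of them, with 4 and 10 reads in LNCaP95, against 16 and 9 in LN95(KO). HIST2H2AA3 had 9 and 7 against 12 and 8, and H3C12 had 13 and 9 against 4 and 5. H1-4, an abundant linker histone in dividing cells, had 0 and 1 against 3 and 4 reads, and H1-5 had 2 in all. Near-identical copies limit some of these counts. H4C14 and H4C15 share all of their 50-base windows with another gene, as does H3C15. HTSeq counts a read that fits several copies equally well for none of them, and the part of this in the low counts was not tested. H3C4 and H2AC7, both at 0 in all 4 libraries, have 96.6% and 85.3% of their exon bases inside another annotated gene. HTSeq counts a read there for neither, if the annotation used for counting held the same overlap. In all, 23 of the 65 members had over 10% of their 50-base windows in another gene and 25 had none.

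The summed levels of the histone classes differed in direction between the lines. H1 genes summed to 12.4 and 11.7 CPM in LNCaP95, against 18.1 and 21.9 in LN95(KO) (ratio 1.66), nearly all of it from H1-2. H2A genes summed to 102 and 97.6 against 65.8 and 59.5 (ratio 0.628), and to a ratio of 0.831 without H2AC6. Most of the H2A sum came from H2AC6 and H2AC25, with means of 57.3 and 38.5 CPM in LNCaP95, against 27.4 and 25.4 in LN95(KO). The 4 H2A genes at the filter's level in both lines had a median log2 fold change of 0.22, so the sum does not speak for the other H2A genes. H2B genes summed to 113 and 116 against 96.6 and 106 (ratio 0.885). H3 genes summed to 31.3 and 31.1 against 27.2 and 25.3 (ratio 0.843), which was 0.558 without H3C10. H4 genes summed to 40.5 and 37.4 against 40.3 and 36.7 (ratio 0.988) with overlapping libraries, and it lay on either side of 1 when libraries were left out. These sums are given without a test.

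**Figure D2:**
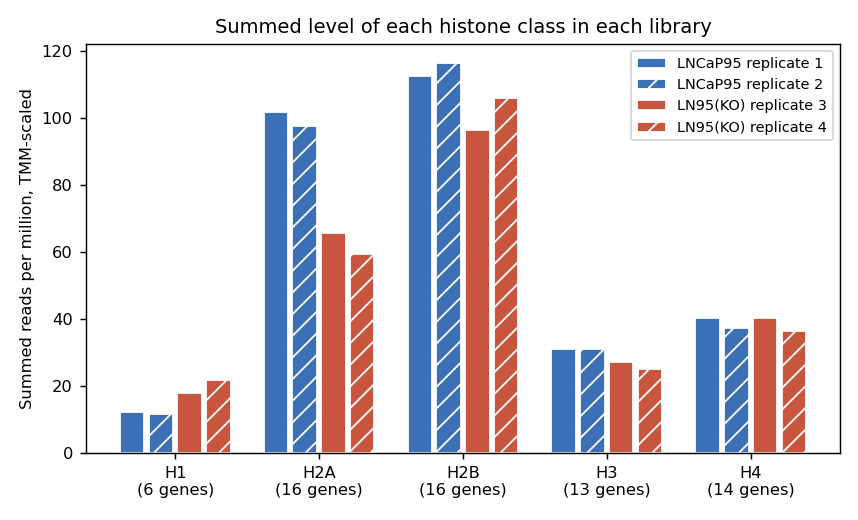
Summed TMM-scaled CPM of each histone class in each of the 4 libraries, with every member of the class counted. H2A averages 99.8 in LNCaP95 and 62.7 in LN95(KO), H1 averages 12.1 and 20.0, and the H4 bars of the lines overlap.

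All classes together summed to 296 ± 3.19 CPM in LNCaP95 and 249 ± 0.907 in LN95(KO) (SD, n = 2), and the ratio was 0.839. By locus, the ratio was 0.900 over the 50 genes of the chromosome 6 cluster, 0.814 over the 11 genes of HIST2 on chromosome 1 and 0.629 over the 3 genes of HIST3. The single HIST4 gene, H4C16, had no reads.

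The members were also set side by side by the annotated end of their transcripts. Members with a transcript past the stem-loop summed to 228 and 228 CPM in LNCaP95, against 178 and 169 in LN95(KO) (ratio 0.760). Among the 12 that reached the filter's level in both lines, 1 was called higher and 2 lower, with a median log2 fold change of -0.23. Members whose transcripts all end at the stem-loop summed to 49.9 and 48.7 against 54.3 and 63.6 (ratio 1.20). Among the 6 that reached the filter's level in both lines, 2 were called higher and none lower, with a median of 0.32. Over all genes tested, 8.86% were called higher and 9.13% lower. H2AC8, 1 of the 2, was not called under DESeq2 (adjusted p = 0.140). The second ratio was held down by H2BC12, which has the most reads of that group, and was 1.47 without it. Most of the rise in that sum came from H1-2, at 12.3 and 11.6 CPM in LNCaP95, against 17.9 and 21.6 in LN95(KO). A polyadenylation signal, AATAAA or ATTAAA, begins 13 bases after the H1-2 stem-loop, and its use was not measured. The groups rest on annotated ends alone. The lines did not overlap in either sum, but in the second this depended on H1-2. No test was made between the groups, and the annotation used for the ends is newer than the one used for counting.

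**Figure D3:**
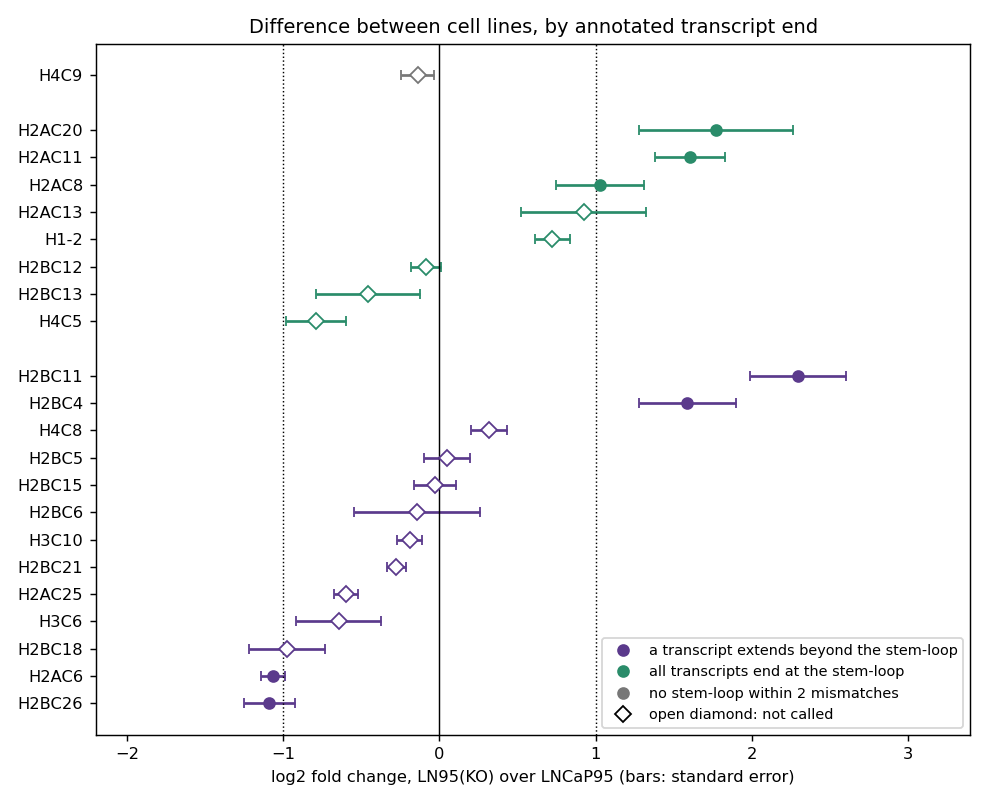
Log2 fold change of each tested member with its standard error, grouped by whether an annotated transcript extends beyond the stem-loop, and with dotted lines at 2-fold. Both groups hold members on each side of 0, and the 2 genes called lower, H2AC6 and H2BC26, are both in the group with a longer transcript.

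Many H2A and H2B genes lie head to head and share a short promoter. In 10 such pairs the starts lay under 500 bases apart, and in 5 of them both genes were tested. H2AC11 and H2BC11 were both called higher (log2 fold changes 1.60 and 2.30). H2AC25 and H2BC26 were both lower (-0.60 and -1.09), the second called. In the other 3 pairs the log2 fold changes had opposite signs. H2AC6 was called lower at -1.07 while H2BC4, with 218 bases between the starts, was called higher at 1.59, and H2AC20 was called higher at 1.77 while H2BC21 fell by 0.28. H2AC13 and H2BC13 had values of 0.92 and -0.46, neither past the adjusted p. The difference within a pair, H2B minus H2A, was 2.65 for H2BC4 and H2AC6 and 0.69 for H2BC11 and H2AC11, and was not tested. H2AC20, H2BC11 and H2AC13 could be tested only through their LN95(KO) reads, so the directions in their pairs were partly set by the filter. Only H2AC25 with H2BC26 and H2AC6 with H2BC4 had both genes at the filter's level in both lines.

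**Figure D4:**
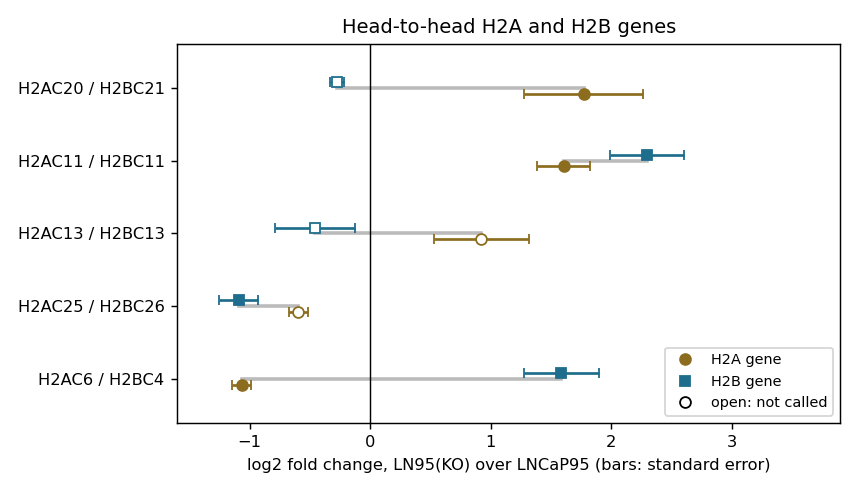
Log2 fold changes of the H2A gene (circle) and the H2B gene (square) of each head-to-head pair with both genes tested, with standard errors and filled symbols for called genes. The H2AC11 and H2BC11 symbols are both to the right of 0, whereas those of H2AC6 and H2BC4 lie on opposite sides, at -1.07 and 1.59. H2BC11, H2AC20 and H2AC13 could be tested only through their LN95(KO) reads.

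The DNA between the starts of 3 of these pairs is printed, since they show 1 pair called higher together, 1 pair called in opposite directions and 1 pair lower together. In the first of them H2BC11 could be tested only through its LN95(KO) reads. Each is the plus strand of GRCh37, and the gene named first reads to the left. Capitals mark, on either strand, the octamer ATTTGCAT bound by the POU factor OCT1 (POU2F1), the TATA element TATAAA and the CCAAT element.
H2BC11 and H2AC11, chr6:27100575-27100821: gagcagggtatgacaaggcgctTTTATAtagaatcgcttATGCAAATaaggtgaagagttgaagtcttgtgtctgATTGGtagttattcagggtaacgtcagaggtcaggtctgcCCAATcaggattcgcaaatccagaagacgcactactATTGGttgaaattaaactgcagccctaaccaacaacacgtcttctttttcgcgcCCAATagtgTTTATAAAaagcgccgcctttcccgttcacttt
H2BC4 and H2AC6, chr6:26124155-26124372: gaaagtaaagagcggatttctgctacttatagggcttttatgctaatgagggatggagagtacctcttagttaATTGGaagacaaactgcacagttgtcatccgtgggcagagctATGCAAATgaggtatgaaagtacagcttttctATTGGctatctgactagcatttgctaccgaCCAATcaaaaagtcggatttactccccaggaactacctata
H2AC25 and H2BC26, chr1:228645575-228645803: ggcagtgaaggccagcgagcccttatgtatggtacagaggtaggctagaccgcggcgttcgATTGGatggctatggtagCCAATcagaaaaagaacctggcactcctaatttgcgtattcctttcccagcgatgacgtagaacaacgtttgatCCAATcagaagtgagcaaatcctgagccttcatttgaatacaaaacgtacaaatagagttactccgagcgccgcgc

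The H2BC11 and H2AC11 region held 1 octamer, 3 TATAAA and 4 CCAAT matches, and 2 of the TATAAA matches overlap on opposite strands. The H2BC4 and H2AC6 region held 1 octamer, no TATAAA and 3 CCAAT matches, and the H2AC25 and H2BC26 region held 3 CCAAT matches alone. The same motifs were counted in the RefSeq promoter windows (GRCh38.p14, 250 bases before to 50 after the start), which were matched for 59 of the 65 members. In these windows both H2BC4 and H2AC6 held TATAAA, so its absence from their printed region depends on where that region was cut. The windows of H2AC25 and H2BC26 held none. The octamer was in 24 of 59 windows (40.7%), against 1.80% of 27305 promoters. Those 24 were 11 of 14 H2A, 12 of 16 H2B and 1 of 11 H3 windows, with none in H1 or H4. Head-to-head H2A and H2B genes have 169 to 250 bases between their starts, so both windows of a pair cover much the same DNA. The same match can then count for both genes, and the H2A and H2B counts of each motif are not independent. TATAAA was in 67.8% of member windows against 12.0% of all, and CCAAT in 83.1% against 35.7%. All H1, H2A, H2B and H3 windows held CCAAT, but only 2 of 12 H4 windows did. A match is a string of letters and not a measured site.

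The factors around histone genes were described from lists. For this and the lists below, the shares over all genes tested were 8.86% called higher and 9.13% called lower. Of 45 genes of histone transcription and 3′ end processing, all tested, 2 were called higher and 1 lower, with a median log2 fold change of 0.06. CDK2, a kinase that acts on the histone gene coactivator NPAT, had 283 and 280 reads against 730 and 932 (1.59, SE 0.10, adjusted p = 3.06e-10). LSM4, a subunit of the LSM ring that takes part in mRNA decay, had 1700 and 1633 against 3134 and 3509 (1.03, SE 0.06, adjusted p = 4.33e-11), and 0.97 without LN95(KO) replicate 4. CTIF, a factor of cap-binding complex-dependent translation, had 1033 and 1045 against 272 and 216 (-2.06, SE 0.09, adjusted p = 5.15e-12). NPAT itself rose by 0.35 (SE 0.08, adjusted p = 0.0015) and SLBP had 1458 and 1400 reads against 1227 and 1321 (log2 fold change -0.13, SE 0.06, adjusted p = 0.0565).

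The replication-independent histones were 11 tested genes of 24 listed, with 3 called higher, 1 lower and a median of 0.46. CENPA, the H3 variant of centromeres, had 29 and 33 reads against 318 and 354 (3.46, SE 0.15, adjusted p = 3.52e-12). H2AX, the H2A variant phosphorylated at DNA breaks, had 1143 and 1112 against 3689 and 4717 (1.93, SE 0.10, adjusted p = 1.16e-07). H2AZ1 had 2623 and 2448 against 4699 and 5609 (1.05, SE 0.06, adjusted p = 1.69e-10). MACROH2A2, a large H2A variant, had 968 and 921 against 104 and 99 (-3.18, SE 0.10, adjusted p = 1.50e-14). The H3.3 genes went opposite ways, H3-3A by -0.46 (SE 0.05, adjusted p = 3.04e-07) and H3-3B by 0.33 (SE 0.05, adjusted p = 7.80e-06). H2AZ1 was at 0.95, under the criterion, without LN95(KO) replicate 4.

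The chaperones and chromatin assembly factors that bring histones to DNA had 29 tested genes of 31, with 7 called higher, none lower and a median of 0.47. HJURP, the chaperone of CENPA, had 90 and 110 reads against 1139 and 1275 (3.62, SE 0.10, adjusted p = 4.96e-15). ASF1B, which hands H3 and H4 to the CAF-1 complex, had 136 and 128 against 614 and 782 (2.43, SE 0.12, adjusted p = 8.32e-12). The CAF-1 subunits CHAF1A and CHAF1B both had a log2 fold change of 1.05 (adjusted p = 6.97e-08 and 1.99e-07), and MMS22L and TONSL, partners at replication forks, were at 1.43 and 1.37 (adjusted p = 9.65e-09 and 4.58e-05). CHAF1A and CHAF1B were at 0.93 and 0.88 without LN95(KO) replicate 4, CHAF1A at 0.98 without LNCaP95 replicate 2 and CHAF1B at 0.97 without LNCaP95 replicate 1.

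The 43 S phase genes distributed with Seurat, of which 42 were tested, had 27 called higher, none lower and a median of 1.35. Their summed level was 866 and 818 CPM in LNCaP95, against 1649 and 1974 in LN95(KO). The 6 with the smallest adjusted p were ATAD2, CDC45, CENPU, E2F8, RAD51AP1 and EXO1, with log2 fold changes of 2.39, 3.53, 2.13, 3.26, 2.57 and 3.03 and adjusted p of 2.57e-11 or less. CHAF1B, NASP, SLBP, CASP8AP2 and CCNE2 stand both in this list and in those above, so the counts are not independent. Beside a median of 1.35 for S phase genes, the tested replication-dependent histone genes had a median of -0.11 and a summed ratio of 0.839 in the same libraries. The share of histone mRNA without a poly(A) tail was not measured in either line.

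**Figure D5:**
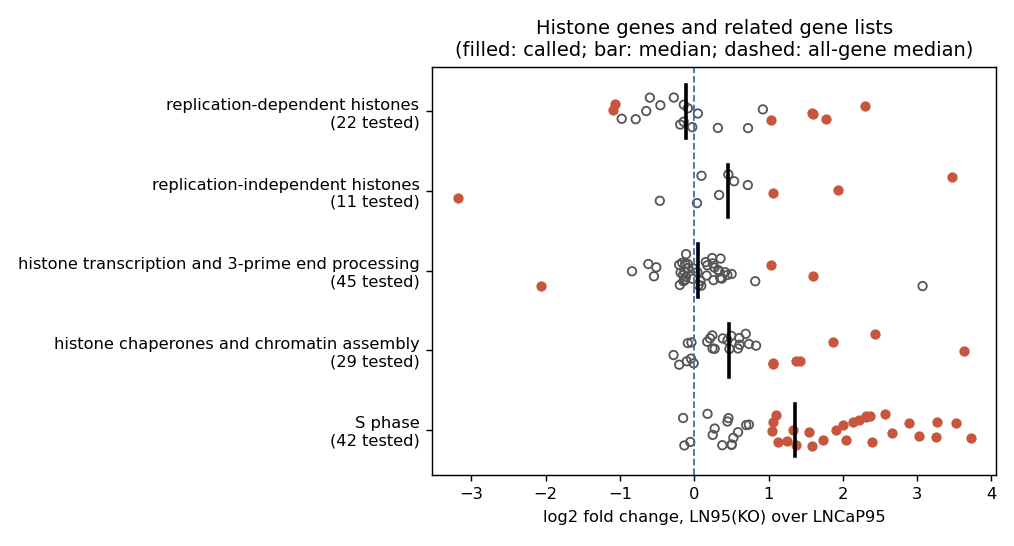
Log2 fold change of every tested gene of 5 lists, with called genes filled, the median of each list as a bar and the median of all genes tested as a dashed line. S phase genes lie mostly to the right, with a median of 1.35, and replication-dependent histone genes lie on both sides of the dashed line, with a median of -0.11.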

How the data were processed

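Poly(A)-selected RNA of 2 LNCaP95 and 2 LN95(KO) libraries was sequenced on the DNBseq platform. The deposited values are read counts per gene: per the labels and the study's methods, these were made by the authors with HISAT2 2.1.0 (alignment to hg19) and HTSeq (counting over GENCODE genes, without strand), so reads that fitted several places or genes were left out. The HTSeq rows for reads not assigned to a gene were kept out of totals and tests, and held 23.8% and 24.0% of the entries in LNCaP95, against 27.5% and 27.1% in LN95(KO). A table of the same counts for the whole series was compared and not used further. The authors' own comparison was not used.

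Counts were fitted for all genes with edgeR 4.0.16 (TMM factors, filterByExpr at a minimum count of 10 and total of 15, robust quasi-likelihood test, Benjamini-Hochberg adjustment) in R 4.3.3, and the script was tested on simulated data. Standard errors come from the fold change and the F statistic. Levels are reads per 1000000 gene reads (CPM), TMM-scaled, and per kilobase of merged GENCODE 44 exons (mapped to GRCh37). DESeq2 1.42.0, other scalings, filters and leaving out each library were the alternatives. Stem-loops and 50-base windows shared between genes were read from GRCh37. Gene names come from that annotation and RefSeq. H2AC19, H3C2 and H3C3 were not analysed here. Replicates differed by more than sampling noise (chi-square per degree of freedom 1.87 in LNCaP95, against 2.50 in LN95(KO)).

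The members and lists were chosen with earlier results of these data known. Named with full statistics were the called members, the 10 tested members of highest level per kilobase, head-to-head pairs with both genes tested, and in each list the called genes (at most 6 by adjusted p) with SLBP, NPAT, H2AZ1, H2AX, H3-3A, H3-3B and CENPA. Of these lists, H2BN1 and the marker PECAM1 matched no gene name in the table. The summed level of the leukocyte markers is not reported here.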

Additional observations from a re-analysis of the deposited data

Results flagged for a closer look

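Outside the gene counts, unaligned reads took a larger share of both LN95(KO) libraries, at 7.71% (7.7074) in the lower of them, than of the LNCaP95 libraries, at 3.85% and 3.96%. Reads aligned more than once, as a share of aligned reads, were 4.12% (4.1158) in the lower LN95(KO) library and 3.94% and 3.96% in LNCaP95. HTSeq leaves such reads out of the counts of near-identical histone genes, and their part in the histone values was not tested.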

How the results depend on the processing

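No paired analysis was possible because the libraries of the lines share no replicate numbers. The members called numbered 7, and 5 under DESeq2, 9 with no filter and 6 with at least 10 reads in every library. The 2 added with no filter, H4C15 and H3C15 (both lower), lie wholly in sequence shared with other genes and were named after their values were seen. With an adjusted p under 0.05 and no fold criterion, which by its construction calls more genes, the counts were 9349 of all genes, 14 members, 9 replication-independent histones, 25 transcription and processing genes and 23 chaperones. With at least 10 reads in every library, where fewer genes were tested, 1824 of all genes were called, against 2811. Leaving out 1 library gave 2539 to 2777 calls over all genes, 5 to 8 members, 3 to 4 replication-independent histones, 2 to 4 processing genes, 5 to 7 chaperones and 23 to 27 S phase genes, a UGT2B17 log2 fold change of -7.09 to -6.98, a member median of -0.16 to -0.05 and a summed ratio of 0.833 to 0.845. That ratio was 0.872 with library totals and 0.842 without H2BC21, alternatives chosen after seeing the data.

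Among the tested members, 3 uncalled genes close to 0 changed sign: H2BC15 to 0.028 with library totals, 0.060 without LNCaP95 replicate 2 and 0.068 without LN95(KO) replicate 3, H2BC12 to 0.072 without LN95(KO) replicate 3, and H2BC5 to -0.018 without LNCaP95 replicate 1 and -0.029 without LN95(KO) replicate 4. Over leaving out each library H2BC12 ranged from -0.26 to 0.072, H2BC15 from -0.12 to 0.068 and H2BC5 from -0.029 to 0.13. Their cause was not tested. Stem-loops were found in 50, 60 and 65 members with 1, 2 and 3 mismatches allowed and in 60 within 200 bases. With 100-base windows 21 members shared over 10% of windows. Low depth limits all members outside the tested 22.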

Other observations

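Histone pseudogenes of the same loci are not protein-coding and were left out of the 65 genes. One of them, H2BC19P, had 220 and 211 reads in LNCaP95, against 134 and 137 in LN95(KO), and H4C10P had 29 and 27 against 13 and 12. Both were picked out after their values were seen. Among the other counted pseudogenes whose older symbols begin HIST1H, HIST2H, HIST3H or HIST4H, none had more than 5 reads in a library.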
